A study of Homo sapiens with 30 samples.

Results

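The Poria Cocos dose series comprised 3 of the 30 RNA-seq libraries of the study: SW1783 cells, a human astrocytoma line, that received the ethanol extract of Poria Cocos at 20, 100 and 500 µg/mL for 24 h, with 1 library at each dose. The libraries were chosen by their treatment labels. They were set against the other groups of the same table, all of SW1783 cells at 24 h: the ethanol extract of Atractylodis Rhizoma with 1 library per dose, Palmul-tang and Sibjeondaebo-tang as water extracts with 3 libraries at each of these doses, and 3 libraries of the vehicle, 0.1% DMSO per the sample labels (the series description gives another share). The Samul-tang water extract, with 1 library per dose, entered the model only. Poria is an herb of both Palmul-tang and Sibjeondaebo-tang.

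Poria Cocos is the dried sclerotium of a fungus that grows on pine roots, and ethanol draws lanostane triterpenoids out of it. Several pathways report on how a cell meets such a mixture: NRF2 drives genes of antioxidant and thiol metabolism, the aryl hydrocarbon receptor drives genes that metabolize planar aromatic compounds, and the unfolded protein response sets the level of chaperones in the endoplasmic reticulum. TXNIP is an arrestin-like protein that binds thioredoxin and limits glucose uptake. MondoA and its relative ChREBP, which sense sugar phosphates, switch its gene on through a carbohydrate response element.

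Total counts ran from 23.77 M to 30.53 M in the Poria Cocos libraries and from 22.57 M to 27.96 M in the vehicle libraries (M, 1e6 counts), within 22.57 M to 37.82 M over all 30. Measured as the chi-square statistic per gene, the Poria Cocos library at 500 µg/mL differed from that at 20 µg/mL by 8.11 and from that at 100 µg/mL by 4.81, and those at 100 and 20 µg/mL differed by 2.57. The 21 replicate pairs of the formulas and vehicle ran from 2.14 to 8.14 with a median of 3.04, so all 3 distances lay within the replicate range. The replicate pairs at 8.144 and 7.421 both hold replicate 3 of Sibjeondaebo-tang at 500 µg/mL; among the others the highest was 6.678, below the distance between 500 and 20 µg/mL of Poria Cocos. Of the astrocyte markers GFAP, AQP4, S100B, ALDH1L1 and FABP7 had at most 4 counts in any library. SLC1A2 was low in the Poria Cocos libraries, at 0.252 to 0.374 CPM. Other members of that list were expressed there. VIM stood at 4840 to 5230 CPM, CD44 at 2880 to 2990, CHI3L1 at 1200 to 1270 and GJA1 at 230 to 247 CPM. SOX9 stood at 64.1 to 68.5, GLUL at 54 to 59.7 and SLC1A3 at 24 to 28.3 CPM. Fibroblast markers were expressed as well, COL1A1 at 3120 to 3400 CPM and DCN at 13.8 to 14.2 CPM. CPM here are counts relative to library size, scaled by TMM, except those of cell type markers, which are unscaled.

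The first question was which genes followed the dose. The dose trend is the log2 change per 5-fold step of dose. With 1 library per dose it equals the difference between 500 and 20 µg/mL shared over 2 steps, and the spread comes from the replicated groups, on the assumption that the Poria Cocos libraries vary as they do. Whether the 3 libraries of a replicated group stem from separate cultures is not labelled, and the p-values reflect their spread alone, which may be technical. Of 17839 genes tested, 168 were called at an adjusted p under 0.05 in edgeR's quasi-likelihood test (0.942%), 98 up (0.549%) and 70 down (0.392%). Of these 168, 12 differed at least 2-fold between 500 and 20 µg/mL, and 159 had their value at 100 µg/mL between those at 20 and 500. Selection by a large difference between 20 and 500 µg/mL favours such a middle value, and its share over all genes was not counted. The step above 100 µg/mL was the larger one in 143 of the 168. The calls rest on the high dose: without the library at 500 µg/mL 2 genes were called, TXNIP and CBS, and without that at 20 µg/mL 40 were called.

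TXNIP (ENSG00000265972, chromosome 1, 145992435 to 145996600 on GRCh38) changed most. Its level was 9.66, 10.2 and 10.1 CPM in the 3 vehicle libraries and 8.42, 17.7 and 198 CPM at 20, 100 and 500 µg/mL of Poria Cocos. The library at 20 µg/mL lay below all vehicle libraries, and those at 100 and 500 µg/mL lay above them. The level at 500 µg/mL was 23.6-fold that at 20 µg/mL and 19.8-fold the vehicle mean, and the trend was 2.28 ± 0.061 log2 units per step (SE, adjusted p = 8.62e-25). TXNIP remained called without the library at 500 µg/mL, with a rise of 1.07 from the step below it (adjusted p = 1.03e-04).

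ARRDC4 (ENSG00000140450, chromosome 15, 97960698 to 97973838), an arrestin of the same family that is also a MondoA target, was next. It stood at 7.16, 6.39 and 6.93 CPM in vehicle and at 6.18, 7.82 and 30.9 CPM over the rising doses, a trend of 1.16 ± 0.065 per step (SE, adjusted p = 6.93e-15). These were the only called genes, besides the uncertain CBS, that left a straight line over log dose: 3 genes (0.0168%) had a called curvature, 2 of them below the line (0.0112%) and 1, CBS, above it (0.00561%), and at 100 µg/mL TXNIP lay 1.21 and ARRDC4 0.82 log2 units below the midpoint of the other doses.

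The remaining tested genes of the TXNIP and glucose sensing list were not called. The arrestin ARRDC3 had a trend of 0.04 and ARRDC2 one of 0.03, MLXIP, which encodes MondoA, one of -0.03, and the MondoA and ChREBP target KLF10 one of 0.13. KLF11, a transcription factor related to KLF10, had the highest of these, 0.19 (adjusted p = 0.385). The list thus had 2 of 7 tested members called up, against 0.549% of all tested genes. Its median was 0.13 against -0.0003 over all genes.

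The sequence before the start of TXNIP is shown because MondoA and ChREBP are known to act on this gene through a carbohydrate response element. The stretch shown is the 250 bases before 1 of the gene's RefSeq starts on GRCh38.p14. Capitals mark a match to this element, CACGNG and CNCGNG at the ends of a run of 17 bases, searched on both strands.
TXNIP (chr1:145996580-145996829, minus strand): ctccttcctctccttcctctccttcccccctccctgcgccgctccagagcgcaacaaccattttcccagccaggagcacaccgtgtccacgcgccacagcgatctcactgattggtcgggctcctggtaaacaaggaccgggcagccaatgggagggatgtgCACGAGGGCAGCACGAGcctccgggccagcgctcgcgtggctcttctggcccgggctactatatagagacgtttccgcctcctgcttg
The match covered the bases 88 to 72 before the start. Such a match was found in 149 of 35116 windows of this length in the RefSeq table (0.424%). The window of ARRDC4 held none of these letters. A match describes the letters only, and a part of the element in the trend was not tested.

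**Figure D1:**
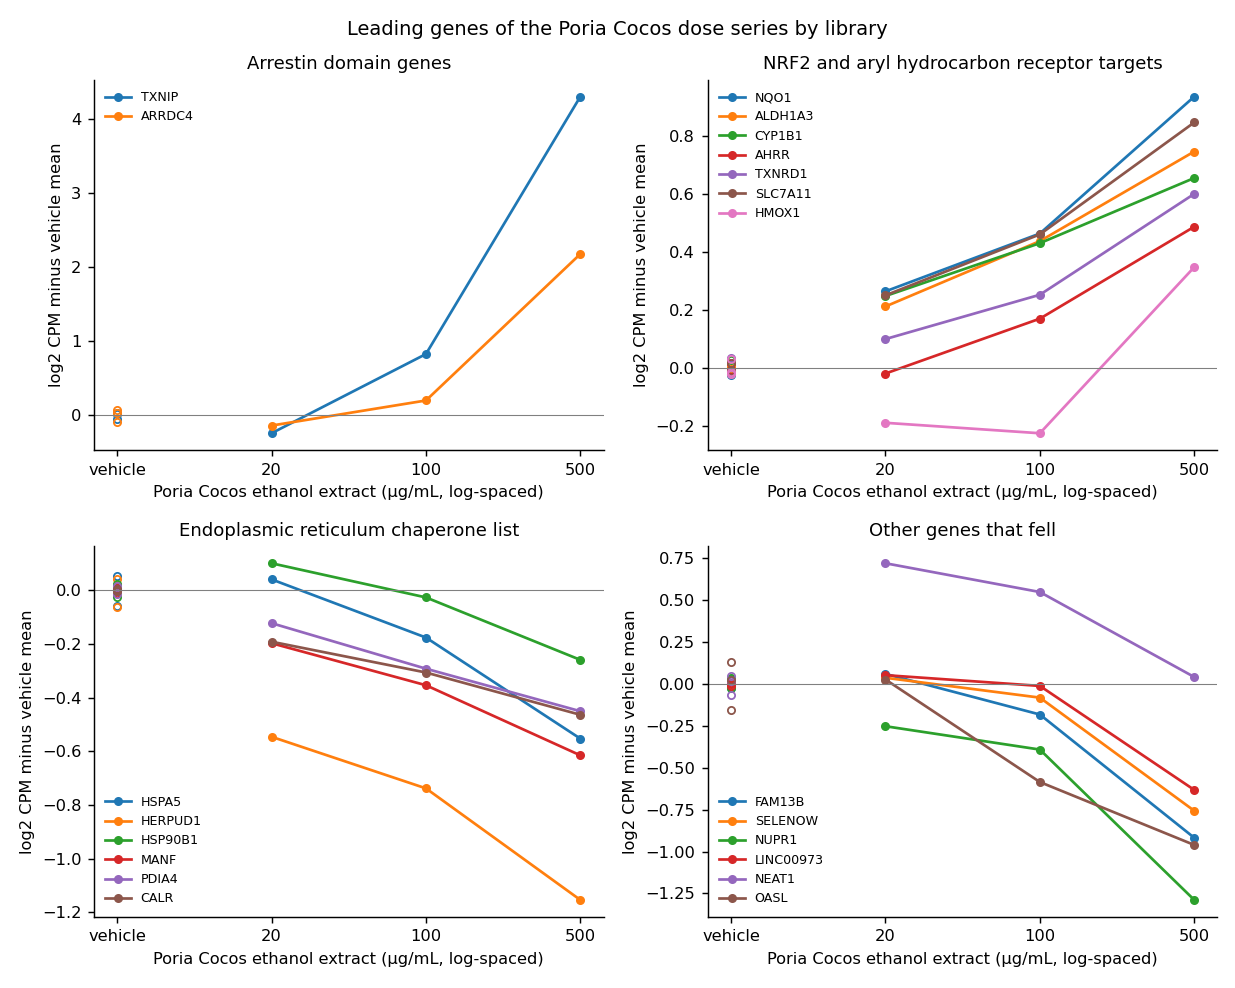
Leading genes of the Poria Cocos dose series. The y axis gives log2 CPM minus the vehicle mean and the x axis the vehicle libraries (open points, 3) and the 3 doses in µg/mL (filled points, 1 library each); TXNIP reached 198 CPM at 500 µg/mL, and the slopes of the chaperones ran downward from 20 to 500 µg/mL.

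Targets of the aryl hydrocarbon receptor rose with dose. Of 6 tested members 5 were called up, against 0.549% of all tested genes. The median trend was 0.26 against -0.0003 over all genes. ALDH1A3, a retinaldehyde dehydrogenase, had the highest level: 670, 677 and 672 CPM in vehicle and 780, 912 and 1130 CPM at 20, 100 and 500 µg/mL (trend 0.26 ± 0.028, SE, adjusted p = 1.7e-07). All 3 doses lay above all vehicle libraries. Such a lack of overlap was found in 39.4% of tested genes. Treatment and handling cannot be told apart against vehicle, here and below, since the sample code sets differ. CYP1B1, a cytochrome P450 that oxidizes aromatic compounds and steroids, stood at 121, 118 and 117 CPM in vehicle and at 141, 160 and 187 CPM over the rising doses (adjusted p = 8.3e-05). AHRR, the repressor of the receptor, stood at 38.7, 38.8 and 39.5 CPM in vehicle and at 38.5, 43.9 and 54.7 CPM (trend 0.25, adjusted p = 2.8e-04). It lay just below the vehicle range at 20 µg/mL and above it from 100 µg/mL on. An annotated gene on the same strand, PDCD6, overlaps it and could share reads. TIPARP, a mono-ADP-ribosyltransferase that dampens the receptor, rose by 0.19 per step (adjusted p = 0.00375). CYP1A1, the classical target, was low at 0.82 to 0.959 CPM in vehicle and at 1.18, 1.12 and 2.47 CPM over the doses, and its trend of 0.53 ± 0.18 did not pass the test (adjusted p = 0.213).

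NRF2 targets moved the same way: 7 of 25 were called up and 0 down, against 0.549% and 0.392% of all tested genes. Of the 25 trends 24 were above 0, and the median was 0.15. NQO1, a quinone reductase that both lists hold, stood at 130, 130 and 127 CPM in vehicle and at 155, 178 and 247 CPM at 20, 100 and 500 µg/mL (trend 0.33 ± 0.026, SE, adjusted p = 7.13e-11). SLC7A11, the cystine importer, stood at 101, 101 and 103 CPM in vehicle and at 121, 140 and 183 CPM over the doses (trend 0.30, adjusted p = 2.44e-06). TXNRD1, thioredoxin reductase, stood at 288, 299 and 289 CPM in vehicle and at 313, 348 and 443 CPM (trend 0.25, adjusted p = 1.18e-06). Every dose lay above the vehicle range for these 3 genes. AKR1C1, an aldo-keto reductase with close paralogs among which reads may be split, rose by 0.32, SRXN1, which repairs peroxiredoxins, by 0.15, and FTH1, the ferritin heavy chain, by 0.13. HMOX1, heme oxygenase, took another course: it stood at 77.8, 80.3 and 77.5 CPM in vehicle, at 68.9 and 67.2 CPM at 20 and 100 µg/mL, below vehicle, and at 100 CPM at 500 µg/mL, above it. Its trend of 0.27 (adjusted p = 6.36e-05) rests on the high dose, and without that library the value was -0.04. GCLM, a subunit of the enzyme that starts glutathione synthesis, had a trend of 0.14 and was not called (adjusted p = 0.148).

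Genes of the endoplasmic reticulum chaperone list fell with dose. Of 18 tested members 11 were called down and 0 up, against 0.392% and 0.549% of all tested genes. All 18 trends were below 0, and the median was -0.14 against -0.0003 over all genes. HSPA5 (ENSG00000044574, chromosome 9, 125234853 to 125241330), the Hsp70 of the endoplasmic reticulum known as BiP, stood at 3210, 3360 and 3470 CPM in vehicle and at 3440, 2960 and 2280 CPM at 20, 100 and 500 µg/mL. The library at 20 µg/mL lay within the vehicle range, and those at 100 and 500 µg/mL lay below it. The trend was -0.30 ± 0.029 (SE, adjusted p = 1.72e-08), and it was called without the library at 20 µg/mL too (adjusted p = 2.93e-04).

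HERPUD1, which takes part in degradation of endoplasmic reticulum proteins and is no chaperone itself, stood at 120, 127 and 129 CPM in vehicle and at 85.8, 75.1 and 56.3 CPM over the doses (trend -0.30, adjusted p = 1.48e-05). It was below vehicle at every dose. HSP90B1, the Hsp90 of this organelle, stood at 1410, 1460 and 1440 CPM in vehicle and at 1540, 1410 and 1200 CPM (trend -0.18, adjusted p = 1.13e-04), above vehicle at the low dose and below it at the high dose. MANF, a secreted protein of the stressed endoplasmic reticulum, fell by 0.21 per step (adjusted p = 2.24e-04), the disulfide isomerase PDIA4 by 0.16, and the lectin chaperone CALR by 0.14. Smaller called falls were those of HYOU1, an Hsp70-like chaperone (0.15), PDIA3 (0.12), PDIA6 (0.10), SEL1L (0.13) and EDEM1 (0.12), of which SEL1L and EDEM1 act in disposal of misfolded proteins. Not called were DNAJB9, DNAJC3, DNAJB11, SDF2L1, CANX, CRELD2 and the transcription factor XBP1, whose trend was -0.09 (adjusted p = 0.172).

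Upstream sequences of 3 called members are shown because the unfolded protein response is known to act on chaperone genes through fixed elements close to the start. They are the 250 bases before the RefSeq start on GRCh38.p14. Capitals mark the endoplasmic reticulum stress element, CCAAT and CCACG at the ends of a run of 19 bases, in HSPA5 and HSP90B1, and element II, ATTGG and CCACG at the ends of a run of 11 bases, in HERPUD1, each on either strand.
HSPA5 (chr9:125241344-125241593, minus strand): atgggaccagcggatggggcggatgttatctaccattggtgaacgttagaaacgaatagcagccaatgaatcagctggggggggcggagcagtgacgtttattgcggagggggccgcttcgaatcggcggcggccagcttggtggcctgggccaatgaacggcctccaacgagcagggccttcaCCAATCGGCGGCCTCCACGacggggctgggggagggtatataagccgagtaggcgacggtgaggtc
HSP90B1 (chr12:103930160-103930409, plus strand): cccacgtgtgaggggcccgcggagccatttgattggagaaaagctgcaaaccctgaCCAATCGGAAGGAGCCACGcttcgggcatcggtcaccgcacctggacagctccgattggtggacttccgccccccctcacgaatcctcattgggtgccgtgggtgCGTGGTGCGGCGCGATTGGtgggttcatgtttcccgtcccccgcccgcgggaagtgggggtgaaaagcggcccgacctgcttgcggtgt
HERPUD1 (chr16:56931892-56932141, plus strand): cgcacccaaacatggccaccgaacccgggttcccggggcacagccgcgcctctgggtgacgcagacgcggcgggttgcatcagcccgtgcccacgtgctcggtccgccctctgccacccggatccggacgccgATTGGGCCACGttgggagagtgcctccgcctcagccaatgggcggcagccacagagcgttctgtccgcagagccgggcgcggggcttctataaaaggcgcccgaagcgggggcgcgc
Of the list's 17 members with a window, 10 held at least 1 of these elements, against 43 of 27305 genes in the table (0.157%). Such elements are known from genes of this response, so the high share in the list tells nothing about the dose series. Among the 10 with a window that were called down, 6 held one. SDF2L1, CANX, CRELD2 and XBP1 held one without being called, so members of both kinds held them. A part of the elements in the trend was not tested.

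The neighbouring ATF4 and amino acid response list split, with 4 of 25 called down and 2 up and a median of -0.06. Among all tested genes 0.392% were called down and 0.549% up. NUPR1, a stress-induced chromatin protein, stood at 8.28, 8.63 and 8.31 CPM in vehicle and at 7.06, 6.41 and 3.44 CPM over the doses (trend -0.52 ± 0.092, SE, adjusted p = 0.00119). DDIT3, the pro-apoptotic factor CHOP, stood at 29.4, 34.1 and 30.3 CPM in vehicle and at 24.2, 21.3 and 16.4 CPM (trend -0.28, adjusted p = 0.00961). Both were below vehicle at all 3 doses. PSAT1, of serine synthesis, and the alanyl-tRNA synthetase AARS1 fell by 0.18 and 0.12. The called rises were those of SLC7A11, which the NRF2 list also holds, and of STC2, a secreted glycoprotein, by 0.13. ATF4 itself had a trend of -0.09 and was not called (adjusted p = 0.261).

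**Figure D2:**
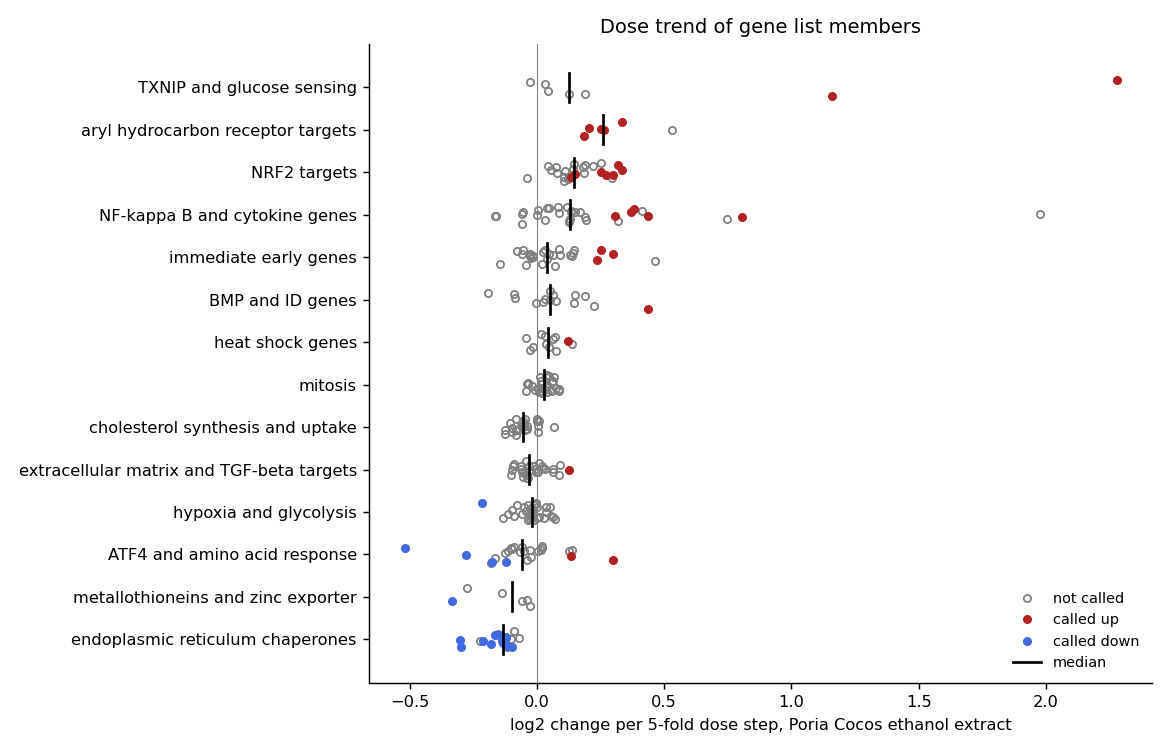
Dose trend of Poria Cocos, as log2 change per 5-fold dose step on the x axis, for the tested members of 14 gene lists. Each point is 1 gene, filled where called up (red) or down (blue), and the black bar is the median of the list; all 18 members of the endoplasmic reticulum chaperone list lay below 0 and 11 were called down.

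Some cytokine genes rose between 20 and 500 µg/mL, several of them from levels below vehicle. Of 31 tested members of the NF-kappa B and cytokine list, 5 were called up, against 0.549% of all tested genes. The 5 were CXCL8, IL1B, LIF, PTGS2 and SERPINB2, and the median of the list was 0.13. CXCL8, a chemokine that draws neutrophils, stood at 10.1, 12.7 and 9.88 CPM in vehicle and at 6.25, 8.45 and 19.1 CPM at 20, 100 and 500 µg/mL (trend 0.81 ± 0.11, SE, adjusted p = 3.06e-04). It was below vehicle at 20 and 100 µg/mL and above it at 500 µg/mL. LIF, a cytokine of the interleukin 6 family, stood at 61, 57.1 and 52.7 CPM in vehicle and at 31.4, 39.3 and 57.3 CPM (trend 0.43, adjusted p = 3.61e-06), so that the high dose lay within the vehicle range. PTGS2, the inducible cyclooxygenase, had 94.3, 94.1 and 90.6 CPM in vehicle and 61.6, 72.1 and 94.4 CPM over the doses, so that the high dose met the top of the vehicle range. SERPINB2, a plasminogen activator inhibitor, rose by 0.37, a call lost without replicate 3 of the formulas, and IL1B, interleukin 1 beta, by 0.38. Among immediate early genes, 3 of 27 were called up: FOSL1, an AP-1 subunit, by 0.25, EGR1 by 0.30 and PHLDA1 by 0.23.

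Other genes at the ends of the ranking were single ones. FAM13B stood at 70.8, 72.7 and 70.2 CPM in vehicle and at 74.3, 62.8 and 37.7 CPM over the doses (trend -0.49 ± 0.035, SE, adjusted p = 6.9e-12). SELENOW, a small selenoprotein, stood at 64.3, 64.6 and 63.7 CPM in vehicle and at 65.9, 60.7 and 38 CPM (trend -0.40, adjusted p = 3.09e-08). For both, 20 µg/mL lay just above the vehicle range and the higher doses below it. NEAT1, the RNA scaffold of paraspeckles, stood at 284, 301 and 307 CPM in vehicle and at 490, 435 and 306 CPM (trend -0.34, adjusted p = 3.6e-05), so it was far above vehicle at the lower doses and within its range at 500 µg/mL.

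Further called falls were those of the long noncoding RNAs MANCR (-0.55), LINC00973 (-0.34) and SNHG26 (-0.48), of OASL (-0.49), an interferon-induced gene, of TNFSF15 (-0.46), a TNF family cytokine, of ULBP3 (-0.34), a ligand of the NKG2D receptor, of AMDHD2 (-0.34), of amino sugar metabolism, and of DPY19L2 (-0.39), which has close copies. The rises included KRTAP2-3 (0.67), a keratin-associated protein whose close copies could share reads, the noncoding SCIRT (0.56), EPGN (0.52), a ligand of the EGF receptor, NPTX1 (0.51), a pentraxin, PBLD (0.46), VIPR1 (0.44), a receptor of vasoactive intestinal peptide, the histone gene H2BC21 (0.44) and GREM1 (0.44), a BMP antagonist. Among these, SCIRT, DPY19L2, ULBP3, OASL, SNHG26, H2BC21 and VIPR1 each lost the call under at least 1 other setting that kept all 3 doses. Because the counting strand is not stated, reads of genes with an annotated partner on the opposite strand cannot be told apart from that partner's; among named genes this touches SCIRT, MANCR, VIPR1, GREM1, FAM13B, AMDHD2, ALDH1A3, CYP1B1, TIPARP, NQO1, SLC7A11, FTH1, HSP90B1, CALR, HYOU1, DDIT3, LIF, PHLDA1, IL6, ICAM1, PTX3, SOD2, ID2, SAMD11 and ANGPTL4.

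Other lists with at least 17 tested genes had medians between -0.06 and 0.04, the highest that of the immediate early genes. The median trend was -0.06 over 25 genes of cholesterol synthesis and uptake, 0.03 over 28 of mitosis, -0.01 over 28 of DNA replication, -0.03 over 17 p53 targets and -0.03 over 77 cytosolic ribosomal proteins. Among shorter lists the median was 0.06 over 13 mitochondrial chromosome protein genes and over 13 glucocorticoid receptor targets, with 12 above 0 in each. It was 0.05 over 15 BMP and ID genes, and 0.04 over 12 heat shock genes and 15 small nucleolar RNA host genes. Some lists of 3 to 6 genes lay farther out. The median was -0.10 over 6 metallothionein and zinc exporter genes, all below 0 and 1 of them called. It was -0.12 over 4 neuron markers, 0.12 over 3 endothelial markers and 0.09 over 3 oligodendrocyte markers. Single members were called in several lists: the desaturase SCD (-0.15), the glycolytic regulator PFKFB4 (-0.22), the metallothionein MT1E (-0.33), the glucocorticoid targets KLF9 (0.18) and SGK1 (0.16), the insulin-regulated IGFBP1 (0.34), the inhibitor TIMP3 (0.15), the matricellular CCN1 (0.13), the chaperone HSPA8 (0.12), the host gene SNHG3 (0.16) and the efflux pump ABCG2 (0.19). For CCN1 and PFKFB4 the step from 20 to 100 µg/mL ran the other way. The calls of CCN1, HSPA8, SNHG3 and ABCG2 were lost without replicate 1 of both formulas, and those of CCN1 and PFKFB4 with 1 line fitted over log dose.

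CBS, which makes cystathionine and has a near-identical copy in the annotation, cannot be read. Its counts were 50, 200 and 222 at 20, 100 and 500 µg/mL, while the copy had 172, 0 and 3. Their sum was 7.55, 8.41 and 7.37 CPM, so the called trend of CBS (1.04, adjusted p = 2.86e-08) came with a shift of reads between the copies in 1 library.

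The next question was how the 3 Poria Cocos libraries differed from the 3 vehicle libraries at all. Of 17839 genes 4877 (27.3%) were called for the mean of the doses against vehicle, 2150 up (12.1%) and 2727 down (15.3%), and in 7023 (39.4%) the values of both groups did not overlap. No treated library carries the sample code set of the vehicle libraries, so treatment and handling cannot be told apart here. Genes of the mitochondrial chromosome took 6.67% to 6.76% of counts in Poria Cocos and 6.99% to 7.62% in vehicle libraries, and the 10 most abundant genes took 7.4% to 7.51% in Poria Cocos and 7.82% to 8.24% in vehicle libraries. The part of these shares in the result was not tested.

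For MARK2, HERPUD1 and NEAT1 the levels at 20 µg/mL and in other extracts were also away from vehicle; how many genes share this was not counted. MARK2, a kinase that controls microtubules and polarity, was at 33.7, 34.6 and 36.5 CPM at 20, 100 and 500 µg/mL of Poria Cocos, against 17.4, 14.7 and 16.8 CPM in vehicle (mean of doses 1.09 ± 0.17 log2 units higher, SE, adjusted p = 1.52e-04). At 20 µg/mL it was at 35.9 CPM with Atractylodis Rhizoma and at 30.4 ± 3.64 CPM with Palmul-tang (SD, n = 3). For HERPUD1 the level at 20 µg/mL was 85.8 CPM with Poria Cocos, 89.4 CPM with Atractylodis Rhizoma and 89.8 ± 4.26 CPM with Palmul-tang (SD, n = 3), all under the 125 ± 5.12 CPM of vehicle (SD, n = 3). For NEAT1 it was 490 CPM with Poria Cocos, 599 CPM with Atractylodis Rhizoma and 551 ± 14.1 CPM with Palmul-tang, against 298 ± 12.1 CPM in vehicle (SD, n = 3 each).

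Among called genes that did not overlap vehicle, SERPINB3 (1.01), whose paralog SERPINB4 is nearly identical, and the pseudogenes NMRAL2P (1.09), LDHAP4 (1.05) and HSPD1P11 (0.82) were highest after MARK2, and ADM2 (-0.88), a peptide hormone, HERPUD1 (-0.81), the pseudogene RPL32P18 (-0.86), CBS (-1.12) and EIF3CL (-4.69) lowest. EIF3CL is a near copy of EIF3C, and its level was 1.86 to 2.83 CPM in Poria Cocos libraries and 13.4 to 90.3 CPM in vehicle libraries, so it is uncertain, and its call was lost under at least 1 other setting. By list, 17 of 29 genes of extracellular matrix and TGF-beta targets were called lower and 2 higher than vehicle (COL1A1 by -0.36), 12 of 25 cholesterol genes lower and 0 higher (HMGCS1 by -0.19), and 11 of 18 endoplasmic reticulum chaperones lower and 0 higher. Of NRF2 targets 13 of 25 were higher and 3 lower, and of aryl hydrocarbon receptor targets 5 of 6 were higher. Of 77 cytosolic ribosomal proteins 31 were lower and 5 higher, and of the ATF4 list 13 of 25 were lower and 3 higher. Among all tested genes, 15.3% were called lower and 12.1% higher. HMGCS1 had a dose trend of -0.08, which was not called (adjusted p = 0.432).

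The formulas that contain Poria were then compared by trend, which does not involve the vehicle. Of the 98 genes called up over the Poria Cocos doses, 71 (72.4%) were also called up in the mean trend of Palmul-tang and Sibjeondaebo-tang, which called 1129 genes up (6.33% of those tested), and these 71 were 6.29% of that list. Of the 70 called down, 42 (60%) were called down in the formulas, 4.14% of their 1015 (5.69% of tested genes). Opposite calls numbered 1 and 2. Taken singly, Palmul-tang had 946 called genes (5.3%; 505 up, 2.83%, and 441 down, 2.47%), and Sibjeondaebo-tang had 1113 (6.24%; 615 up, 3.45%, and 498 down, 2.79%). Of the 98 genes up with Poria Cocos, 48 were up with Palmul-tang and 61 with Sibjeondaebo-tang, and of the 70 down 22 were down with Palmul-tang and 29 with Sibjeondaebo-tang. SELENOW was such a shared gene: it stood at 65.9, 60.7 and 38 CPM over the Poria Cocos doses and at 62.7 ± 3.44, 55.1 ± 1.69 and 33.6 ± 2.47 CPM with Palmul-tang (SD, n = 3 each). Its trend was -0.40 in Poria Cocos and -0.43 in the formulas, with a difference of 0.03 ± 0.043 (SE, adjusted p = 0.926).

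The trend itself differed from that of the formulas in 182 genes (1.02%), 81 above (0.454%) and 101 below (0.566%). Poria Cocos lacked most of the cytokine rise of the formulas. Of the 31 members of the NF-kappa B and cytokine list 16 had a lower trend in Poria Cocos and 0 a higher one, with a median difference of -0.45 against -0.0009 over all genes. In the mean trend of the formulas all 31 were called up (12% of tested genes were called there). CXCL8 stood at 6.25, 8.45 and 19.1 CPM with Poria Cocos, against 12 ± 0.978, 29.5 ± 0.394 and 106 ± 4.19 CPM with Palmul-tang (SD, n = 3 each), and its trend was lower by -0.83 ± 0.12 (SE, adjusted p = 9.5e-04). IL6, interleukin 6, stood at 4.46, 4.66 and 5.36 CPM, against 6.6 ± 0.836, 9.03 ± 0.871 and 19.4 ± 1.01 CPM with Palmul-tang (difference of trends -0.75, adjusted p = 7.96e-06). ICAM1, an adhesion molecule, stood at 52.9, 54.7 and 56.4 CPM, against 73.4 ± 3.92, 105 ± 2.88 and 177 ± 2.33 CPM (difference -0.61, adjusted p = 5.97e-12). PTX3, a secreted pentraxin, and RRAD, a small GTPase, had differences of -0.67 and -0.68, and SOD2, the mitochondrial superoxide dismutase, one of -0.61.

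**Figure D3:**
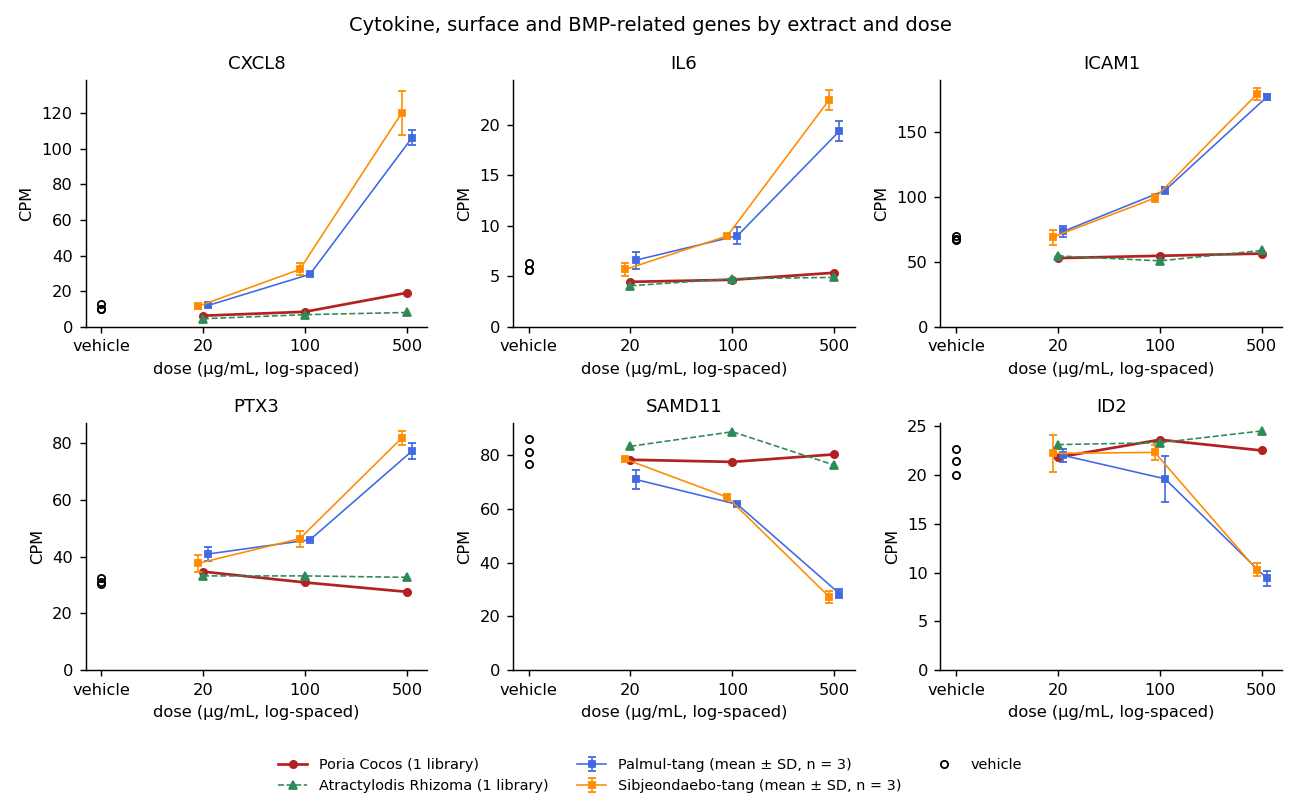
Levels of 6 genes in CPM (y axis) over vehicle and the 3 doses in µg/mL (x axis) for Poria Cocos and Atractylodis Rhizoma (1 library per dose), both formulas (mean ± SD, n = 3) and the 3 vehicle libraries. CXCL8 reached 19.1 CPM at 500 µg/mL of Poria Cocos and 106 CPM at 500 µg/mL of Palmul-tang.

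The BMP and ID list showed the reverse: 7 of 15 members had a higher trend in Poria Cocos, ID1, ID2, ID3, ID4, SMAD6, ATOH8 and DLX3, most of them targets of BMP signalling. In the mean trend of the formulas 10 of the 15 were called down over dose and 2 up, BMP2 and GREM1. Of all tested genes 5.69% were called down and 6.33% up there, and 0.454% had a higher trend in Poria Cocos. In Poria Cocos 1 was called, GREM1, upward as in the formulas. ID2, an inhibitor of helix-loop-helix factors, stood at 21.8, 23.6 and 22.5 CPM over the doses of Poria Cocos, against 22 ± 0.64, 19.6 ± 2.33 and 9.4 ± 0.738 CPM with Palmul-tang (SD, n = 3 each). The difference of trends was 0.61 ± 0.068 (SE, adjusted p = 2.96e-07). SAMD11 likewise stood at 78.2, 77.4 and 80.2 CPM, against 70.9 ± 3.62, 61.6 ± 0.544 and 28.5 ± 1.79 CPM (difference 0.73, adjusted p = 7.74e-14). Of the 81 genes with a higher trend in Poria Cocos, 59 were called down in the formulas, and 21 were called up in Poria Cocos.

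Those 21 included the genes that led the Poria Cocos series. TXNIP, at 198 CPM at 500 µg/mL of Poria Cocos, was at 16.2 ± 1.44 CPM with Palmul-tang and at 16.3 ± 0.341 CPM with Sibjeondaebo-tang at that dose (SD, n = 3 each), and its trend was higher by 1.88 ± 0.067 (SE, adjusted p = 8.79e-21). ARRDC4 was higher by 1.04. NQO1, SLC7A11, TXNRD1, HMOX1 and AKR1B10 of the NRF2 list had higher trends, by 0.22, 0.17, 0.14, 0.22 and 0.48, and so did CYP1B1 and AHRR, by 0.16 and 0.19. AKR1B10 was not among the 21: its trend was called down in the formulas and not called in Poria Cocos. The others, like TXNIP and ARRDC4, were also called up in the mean trend of the formulas. In that mean trend 10 of 25 NRF2 targets were called up and 2 down, and 5 of 6 aryl hydrocarbon receptor targets up. Over all tested genes 6.33% were called up and 5.69% down there. In the endoplasmic reticulum chaperone list the formulas' mean trend called 7 of 18 down and 0 up, HSPA5, HSP90B1 and MANF among them. Of the same 18, 7 had a lower trend in Poria Cocos and 0 a higher one, among them HSPA5 (-0.24), HERPUD1 (-0.28), MANF (-0.17) and HSP90B1 (-0.14). These counts hang on the low and high doses, since 11 genes differed without the library at 500 µg/mL and 19 without that at 20 µg/mL.

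Atractylodis Rhizoma was the nearest comparison, as an ethanol extract with 1 library per dose and the same sample code set. The libraries of both extracts differed by 2.14 in the chi-square statistic per gene at 20 µg/mL, by 3.76 at 100 µg/mL and by 10.85 at 500 µg/mL, where the replicate pairs reached 8.14, and 6.678 without replicate 3 of Sibjeondaebo-tang at 500 µg/mL. The trend differed in 59 genes (0.331%), 24 above (0.135%) and 35 below (0.196%). Atractylodis Rhizoma itself had 89 called trends (0.499%), 51 up (0.286%) and 38 down (0.213%). Of these 15 and 6 were shared with Poria Cocos, 15.3% of its 98 up and 8.57% of its 70 down. TXNIP stood at 8.42, 17.7 and 198 CPM with Poria Cocos, against 9.06, 8.17 and 6.41 CPM with Atractylodis Rhizoma (difference of trends 2.53 ± 0.10, SE, adjusted p = 6.09e-19). ARRDC4 stood at 6.18, 7.82 and 30.9 CPM, against 6.33, 6.55 and 6.59 CPM. Neither gene had a called trend in Atractylodis Rhizoma. KRTAP2-3 had a higher trend in Poria Cocos by 0.97, ARHGDIB by 0.63 (adjusted p = 0.046), and ALDH1A3 by 0.17. The call of ARHGDIB was lost without replicate 1 or replicate 2 of both formulas and with linear dose.

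Part of the chaperone and ATF4 lists differed in trend between the ethanol extracts. Of 18 endoplasmic reticulum chaperones 6 had a lower trend in Poria Cocos and 0 a higher one, with all 18 differences below 0 and a median of -0.16 against 0.0002 over all genes. HSPA5 stood at 3440, 2960 and 2280 CPM with Poria Cocos, against 3620, 3560 and 3630 CPM with Atractylodis Rhizoma (difference -0.30, adjusted p = 2.72e-05). HERPUD1 had a difference of -0.43 and DNAJB9, a cochaperone of HSPA5, one of -0.39. Of 25 ATF4 and amino acid response genes 6 were lower and 0 higher. NUPR1 stood at 7.06, 6.41 and 3.44 CPM with Poria Cocos, against 7.59, 7.3 and 10.8 CPM (difference -0.77 ± 0.12, SE, adjusted p = 3.72e-04), and the asparagine synthetase ASNS at 59.3, 55.3 and 49.9 CPM, against 63.8, 66.2 and 82.5 CPM (-0.31). HMOX1 rose in both extracts but reached 100 CPM at 500 µg/mL of Poria Cocos, against 213 CPM with Atractylodis Rhizoma (difference -0.58, adjusted p = 3.69e-08). ANGPTL4, a lipase inhibitor, stood at 12.4, 13.1 and 13 CPM, against 11.3, 15.9 and 26.7 CPM (-0.58). NRF2 targets rose in both extracts: 11 of 25 were called up and 0 down with Atractylodis Rhizoma, against 7 and 0 with Poria Cocos. Over all tested genes 0.286% and 0.549% were called up. For NQO1 the difference was 0.01 ± 0.037 (SE, adjusted p = 0.973). Without the library at 500 µg/mL of Poria Cocos 6 genes differed, and without that at 20 µg/mL 20.

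**Figure D4:**
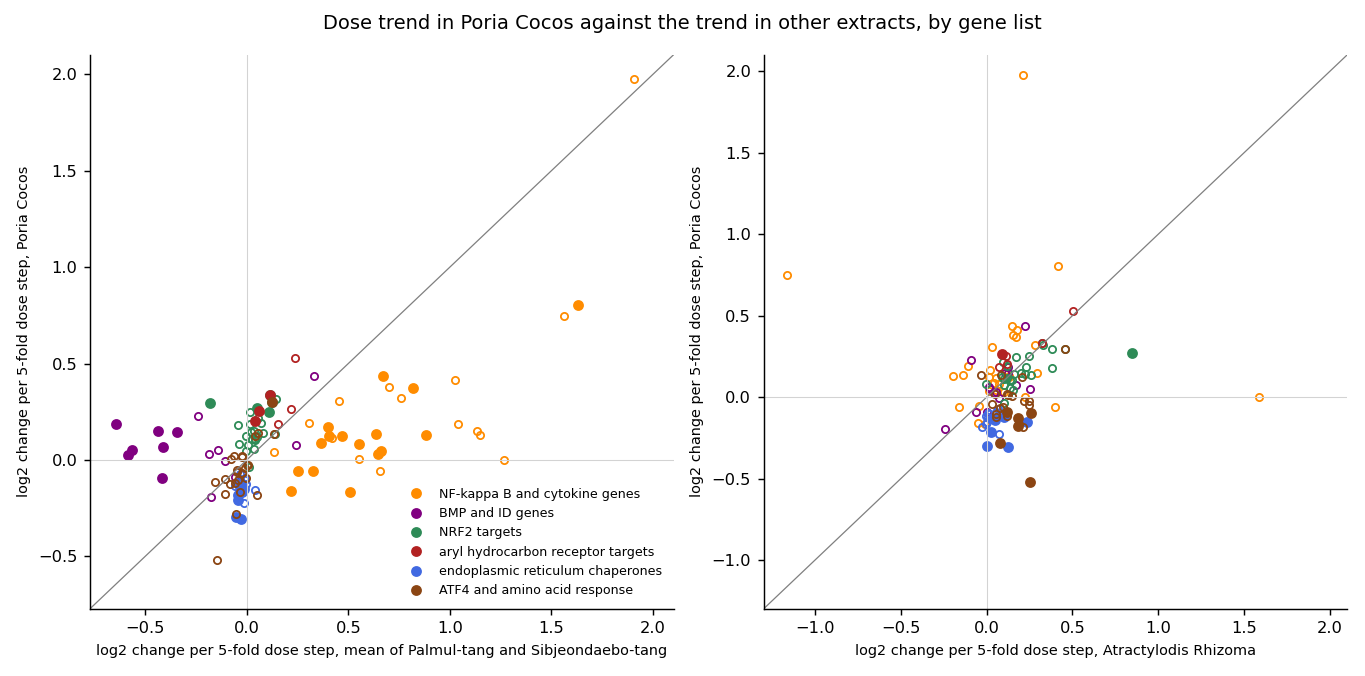
Dose trend in Poria Cocos (y axis, log2 change per 5-fold dose step) against the mean trend of both formulas (left, x axis) and the trend of Atractylodis Rhizoma (right, x axis) for members of 6 gene lists. Each point is 1 gene, filled where the difference of trends was called, and the grey line marks equal trends; the cytokine genes lie to the right of the line in the left panel, where 16 of 31 were called lower in Poria Cocos.

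Over all doses together (chosen after seeing the data), Poria Cocos differed from Atractylodis Rhizoma in 253 genes (1.42%), 128 higher (0.718%) and 125 lower (0.701%). Of the endoplasmic reticulum chaperones 13 of 18 were lower and 0 higher, and of the ATF4 list 10 of 25 were lower and 0 higher. Higher were 9 of 28 mitosis genes, among them MKI67 at 272, 284 and 286 CPM in Poria Cocos, against 265, 247 and 218 CPM in Atractylodis Rhizoma (0.21 ± 0.044, SE, adjusted p = 0.00946), 4 of 6 aryl hydrocarbon receptor targets and 6 of 31 cytokine genes. CXCL8 was higher by 0.67 and THBS1-IT1, an RNA from an intron of THBS1, by 0.72 (adjusted p = 0.0235 and 0.0218). Among the lower genes were AGAP5 (-0.64), the pseudogene CNTNAP3P2 (-0.66) and the channel gene HCN3 (-0.51), of which AGAP5 and CNTNAP3P2 have close copies. The call of CNTNAP3P2 was lost without replicate 1 or replicate 2 of both formulas, and that of HCN3 without replicate 2 or replicate 3. The library at 500 µg/mL carried most of this too: without it 37 genes were called.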

How the data were processed

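RNA of 30 libraries in 16 groups was used, grouped by treatment labels. Per the submitters' processing notes, FastQC 0.11.9, Trim Galore 0.6.5, STAR 2.7.3a and RSEM 1.3.3 made the values. What the authors deposited are unnormalized RSEM expected counts for each gene (hg38). The annotation release and the counting strand are not given in the sources used here. The table has 279 columns, of which 249 belong to none of these libraries and were not used. Rounding to whole numbers came first, since 24% of nonzero values were not whole. Symbols came from reference tables and positions from GENCODE 29. Of 60675 gene IDs 34672 had a count and 17839 passed filterByExpr. edgeR 4.0.16 (R 4.3.3) then estimated 1 mean for each group from the 30 libraries jointly (TMM, robust glmQLFit, 14 residual degrees of freedom, median total 33.7), with Benjamini-Hochberg adjustment at 0.05 over all genes. Fitted log2 values and CPM differ slightly in their prior count. Where average log2 CPM reached 3, a trend was known to ± 0.089 (median over genes, 95% interval).

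The members, the 39 gene lists (688 genes, 655 of them tested) and the naming rule were chosen with earlier results of these data known. Genes were named if they carry a symbol and average log2 CPM reached 1: the 12 largest called trends each way, the 5 largest each way in other comparisons (for vehicle, those without overlap), called curvature, up to 4 called members of each list by smallest p, and a set of markers. Members named beyond that to fill out a list were chosen after their values were seen. Motifs were searched in RefSeq upstream windows. The fit was tested on simulated data. Alternatives were size factors and the Wald test of DESeq2 1.42.0, no filter, fewer groups, a replicate block and a line over log or linear dose. Libraries were also left out, singly or by replicate number of both formulas.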

Additional observations from a re-analysis of the deposited data

Results flagged for a closer look

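These results differed between groups in a test of the difference itself, edgeR's quasi-likelihood test of Poria Cocos trend minus another trend, with values as log2 per 5-fold dose step. Against both formulas 182 genes differed. The trend was higher in Poria Cocos for TXNIP by 1.88, CBS by 1.09, ARRDC4 by 1.04, DLX3 by 0.83 and SAMD11 by 0.73, and the difference was -0.83 for CXCL8, -0.75 for IL6, -0.68 for RRAD, -0.67 for PTX3 and -0.61 for ICAM1. Against Atractylodis Rhizoma 59 genes differed. The trend was higher in Poria Cocos for TXNIP by 2.53, ARRDC4 by 1.13, KRTAP2-3 by 0.97, CBS by 0.87 and ARHGDIB by 0.63, and the difference was -0.77 for NUPR1, -0.58 for ANGPTL4, -0.58 for HMOX1, -0.43 for HERPUD1 and -0.39 for DNAJB9. The call of ARHGDIB was lost without replicate 1 or replicate 2 of both formulas and with linear dose. The values of CBS rest on reads split with its copy at 20 µg/mL.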

How the results depend on the processing

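The 168 genes with a dose trend became 409 in a fit of the 6 Poria Cocos and vehicle libraries alone, and curvature called 7 genes instead of 3 with no filter on low counts. The cause of either was not tested. Leaving out single libraries, or 1 replicate number of both formulas at all doses, gave 2 to 245 genes for the trend, 3 to 4 for curvature, 3887 to 5349 for the mean of doses against vehicle, 11 to 190 for the trend minus that of the formulas, 6 to 86 for the trend minus that of Atractylodis Rhizoma and 37 to 398 for the mean minus that of Atractylodis Rhizoma. The low ends were reached without the library at 500 µg/mL, except for curvature and vehicle. Without replicate 3 of both formulas the trend had 245, the difference from Atractylodis Rhizoma 86 and its mean 398, without Poria Cocos 20 µg/mL that mean 397. Leaving out single Poria Cocos libraries, the trend ranged from -0.092 to 0.34 for CCN1, from -0.04 to 0.579 for HMOX1 and from -0.495 to 0.058 for PFKFB4, reversed each time without the library at 500 µg/mL. For CBS it ranged from -0.207 to 2.294, its difference from the formulas from -0.165 to 2.336 and that from Atractylodis Rhizoma from -0.385 to 2.116, reversed without the library at 20 µg/mL. The Wald test of DESeq2 called 181 genes for the trend.

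With the replicate block 205, 3, 4626, 203, 78 and 326 genes were called in the same order of comparisons. Whether the replicate numbers pair the libraries was not settled. Same-numbered libraries of different groups deviated together with a correlation from -0.21 to 0.33 and a median of 0.054 (63 pairs, 22 of them over 0.1). Same-numbered libraries of both formulas share a sample code set, while those of vehicle carry their own. The Poria Cocos libraries carry only number 1. Among named genes the call of OASL was lost with the block. One library per dose limits the precision: counting error is small at these depths, but the spread of Poria Cocos libraries is not measured. Genes at 1 to 3 CPM have wide intervals.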
